A study of Mus musculus with 6 samples.

Results

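The 70 genes described here encode cytochrome P450 enzymes of families 1 to 4 in mouse heart. They are all the genes whose array probe set carried a single symbol beginning with Cyp1, Cyp2, Cyp3 or Cyp4 followed by a letter, 1 probe set each, out of 35556 probe sets on the array, of which 21789 carried a single symbol. Family 1 held 3 of them, family 2 held 45, family 3 held 6 and family 4 held 16. Cytochrome P450 enzymes are haem proteins that add oxygen to their substrates with electrons from a reductase. Families 1 to 3 are best known in liver, where they oxidise drugs, toxicants and steroids, and family 4 hydroxylates fatty acids. In heart and vessels some of the same families turn arachidonic acid into epoxides or hydroxylated products that act on vascular tone.

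Ventricular RNA was compared between wild-type (WT) mice and VAChT KDHOM mice, which are homozygous for a systemic knockdown of the vesicular acetylcholine transporter so that acetylcholine release is reduced throughout the body and not in the heart alone. The labels give male mice of 3 months on C57BL/6 for both groups, and the study's methods a mixed background backcrossed for 3 generations. There were 3 arrays per group, each made from a pool of 2 RNA samples, so the p-values below measure the spread between 3 pools. The values are log2 signals after robust multi-array averaging (RMA), on which a difference of 1 is a doubling.

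The 6 arrays correlated with each other at 0.98 to 0.99 and none were identical. VAChT KDHOM 1 stood apart, as the array with the lowest signal for 12 of 12 cardiomyocyte markers (mean 13.14, against 13.74 to 13.81 on the other arrays). Slc18a3, which encodes the transporter, had log2 signals of 7.31, 7.42 and 7.11 in the WT and 7.24, 6.77 and 7.58 in the VAChT KDHOM arrays, which overlapped and so do not check the labels. Ogdhl, a mitochondrial enzyme gene, had log2 signals of 9.60, 7.21 and 10.33 under the WT labels and of 7.06, 10.17 and 7.09 under the VAChT KDHOM labels, numbered 1 to 3 in each, so that it divided the arrays across the labels at both arrays numbered 2. The gene would follow the groups if the labels of these 2 arrays were exchanged. With the labels as kept, the fold change of Ogdhl was −1.92, a much smaller fall than the study lists for this gene. Whether the 2 arrays were exchanged, or grouped otherwise in the study's contrast, was not tested, since values do not assign samples. The labels were kept. The differences below are therefore between the groups as labelled, and may not be the study's own contrast. An exchange would change every difference below, and also which genes have groups that do not overlap. Genes for which the groups did not overlap, and some others, are given without both arrays as well. Leaving both arrays out does not show what an exchange would give. Those values therefore do not test the labels, and genes apart below could overlap after an exchange.

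To separate P450 genes with signal in heart from those near background, the 1035 probe sets of olfactory receptors, genes used by sensory neurons of the nose, were taken as a measure of background. Their mean log2 signal over the 6 arrays had a median of 4.71 and a 95th percentile of 6.50. Of the 70 P450 genes, 17 exceeded that percentile and 53 did not. The gene just inside was Cyp2c37 at 6.59 and the gene just outside was Cyp2f2 at 6.30. At the 99th percentile, 7.43, there remained 6, namely Cyp2d22, Cyp4b1, Cyp2u1, Cyp4f13, Cyp2j6 and Cyp2d37-ps. When the percentile had to be passed on each of the 6 arrays by itself, 14 genes were above it. Cyp2d10 and Cyp2w1 then passed on 5 arrays and Cyp2c37 on 3.

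The genes above background came mostly from family 2, with 13 of its 45 genes, while family 4 had 3 of 16, family 1 had 1 of 3 and family 3 had 0 of 6. By subfamily, 5 of 10 Cyp2d genes were above background, 2 of 6 Cyp2j, 2 of 9 Cyp4f, 1 of 5 Cyp2b and 1 of 13 Cyp2c. No member of Cyp1a, Cyp2a, Cyp3a or Cyp4a was above background. Of 41 genes on a list of liver-type P450 genes, 35 were near background and 6 were above it (Cyp2d22, Cyp2d40, Cyp2e1, Cyp2d26, Cyp2d10 and Cyp2c37). The list was broad, and the 35 included Cyp2f2, described below as a lung enzyme. Of 24 measured genes on a list with roles described in heart or vessels, 9 were above background. A high or low signal on an array depends on the probes as well as on the RNA, so a probe set near background does not show that its gene is unused, and the genes are not ranked among themselves here.

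**Figure D1:**
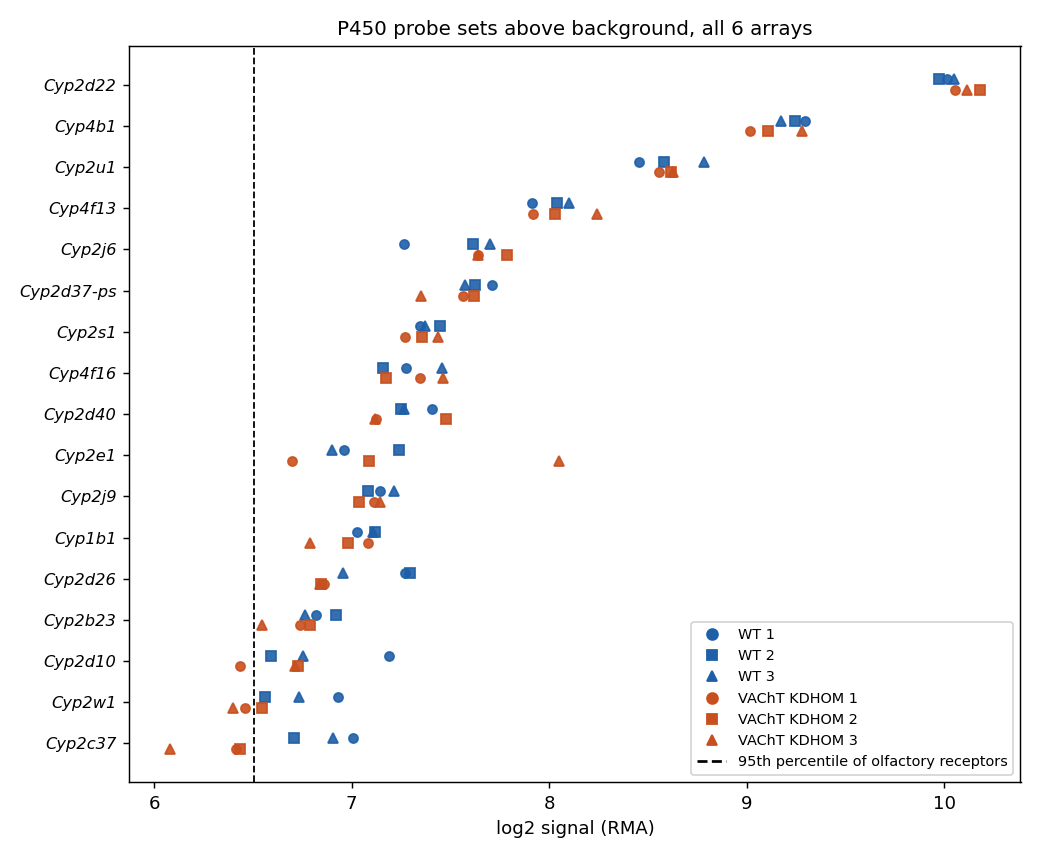
Log2 signal on each of the 6 arrays for the 17 P450 genes above background, with WT arrays in blue and VAChT KDHOM arrays in orange, and the dashed line at 6.50, the 95th percentile of the olfactory receptor probe sets. The groups are separate for Cyp2d22 (VAChT KDHOM higher) and for Cyp2d26, Cyp2w1 and Cyp2c37 (VAChT KDHOM lower), and 1 VAChT KDHOM array stands out for Cyp2e1.

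No P450 gene differed between the genotypes at an adjusted p of 0.05 by limma. The lowest adjusted p among the 70 was 0.409, and over the whole array 1 probe set passed (0.00281%). At an unadjusted p of 0.05 and a change of at least 1.3-fold, 0 P450 genes were higher in VAChT KDHOM hearts and 2 were lower, Cyp2c37 and Cyp2c39, where 2.12% of all probe sets were higher and 1.67% were lower. Cyp2c39 was near background, at a mean of 4.08 over the 6 arrays, and Cyp2c37 lay just inside the background level at 6.59. At an unadjusted p of 0.05 alone, 9 P450 genes were lower and 0 were higher, against 7.81% of all probe sets lower and 3.93% higher. The groups did not overlap for 12 genes, of which 11 were lower and 1, Cyp2d22, was higher in VAChT KDHOM arrays, where 12.9% of all probe sets were lower without overlap and 6.25% were higher.

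The count of 9 genes lower at an unadjusted p of 0.05 moved with the processing. It was 6 after each array was centred on the median of all probe sets (3.66% of all probe sets lower) and 2, with Cyp2d22 higher, after centring on the olfactory receptors (1.90%). Leaving out single arrays gave 4 without WT 1 (3.69%), 5 without VAChT KDHOM 3 (3.96%) and 13 without WT 3 (8.20%). It was 7 without both arrays numbered 2 (6.16%).

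The difference was below 0 for 56 of the 70 P450 genes, with a median of −0.10, whereas it was below 0 for 54.2% of all probe sets, with a median of −0.02. The same held for probe sets that served as background. Among the olfactory receptors 866 of 1035 lay below 0, with a median of −0.11. The 53 P450 genes near background had a median of −0.12 with 44 below 0, and the 17 above background a median of −0.07 with 12 below 0. When each array was centred on its olfactory receptor median, 34 of the 70 P450 genes lay below 0, the median was −0.01 for those near background, and that of the genes above background turned to 0.04.

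The mean signal of the 53 genes near background was 5.04, 4.90 and 4.85 on the WT arrays and 4.81, 4.86 and 4.78 on the VAChT KDHOM arrays. The olfactory receptors took the values 4.98, 4.85 and 4.84 and then 4.78, 4.81 and 4.73 on the same arrays. Both were highest on WT 1 and lowest on VAChT KDHOM 3, and WT 1 was the highest array for 35 of the 53 P450 genes. For the 17 genes above background the means were 7.59, 7.56 and 7.58 in WT and 7.43, 7.52 and 7.52 in VAChT KDHOM, with the lowest value on VAChT KDHOM 1. Counts of lower P450 genes are therefore set against probe sets on the same side of the background level. Of the genes near background 11.3% were lower at an unadjusted p of 0.05, and 12.6% of all probe sets with 1 symbol at or below background were. Of the 17 genes above background 3 were lower (17.6%; Cyp2c37, Cyp2d26 and Cyp2w1), against 5.46% of probe sets with 1 symbol above background. Those probe sets had a median signal of 8.25, and 28.8% of the olfactory receptor probe sets above the level were lower. Cyp2c37 (mean 6.87 in WT, 6.31 in VAChT KDHOM) and Cyp2w1 (6.74 and 6.47) passed the level only through their WT arrays. The share of lower genes thus depends in part on the split itself and is a description.

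**Figure D2:**
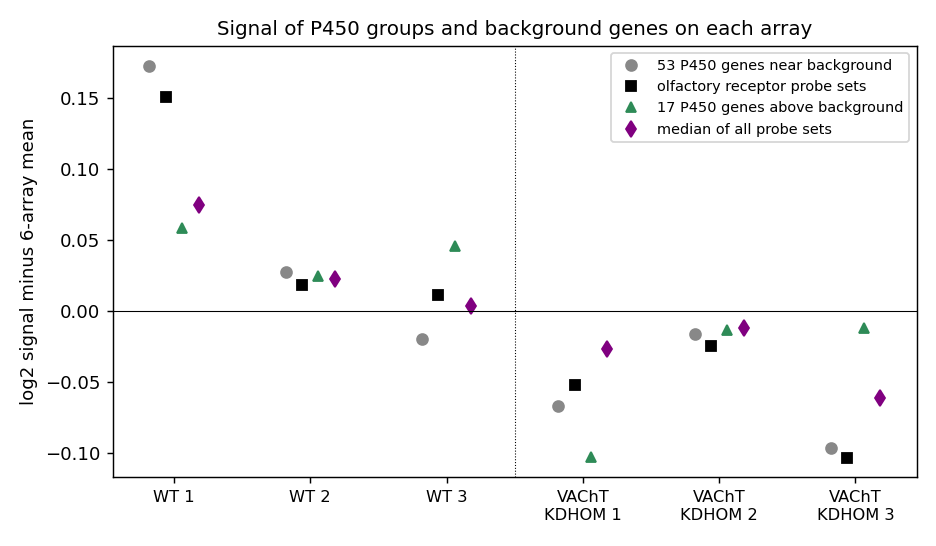
Mean log2 signal on each array minus its mean over the 6 arrays for the 53 P450 genes near background, the olfactory receptor probe sets and the 17 P450 genes above background, with the median of all probe sets beside them. The P450 genes near background and the olfactory receptors move in the same way between most arrays, above their mean on WT 1 and below it on all 3 VAChT KDHOM arrays.

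Among enzymes with described roles in heart and vessels, those that act on fatty acids and had heart signal showed no called difference. Cyp2j6, of the Cyp2j subfamily that epoxidises arachidonic acid, had log2 signals of 7.26, 7.62 and 7.70 in WT and 7.64, 7.78 and 7.64 in VAChT KDHOM hearts. WT 1 was the low array and the other values overlapped. The difference was 0.16 ± 0.13 (SE, n = 3 per group; limma adjusted p = 0.588), and 0.03 without WT 1. Cyp2j9 of the same subfamily differed by −0.05 ± 0.08. The other 4 measured Cyp2j genes, Cyp2j5, Cyp2j11, Cyp2j12 and Cyp2j13, were near background with differences from −0.15 to 0.00.

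Cyp2u1, a fatty acid hydroxylase, measured 8.45, 8.58 and 8.78 in WT and 8.56, 8.62 and 8.63 in VAChT KDHOM hearts. The VAChT KDHOM values lay within the WT range, and the difference was 0.00 with a 95% interval of −0.24 to 0.23. Cyp4f13 and Cyp4f16 belong to a subfamily that hydroxylates leukotrienes and other fatty acids. Cyp4f13 measured 7.91, 8.04 and 8.10 against 7.92, 8.03 and 8.24, nearly the same values in both groups. Cyp4f16 differed by 0.03 ± 0.11. Cyp4f18, which inactivates leukotriene B4 in neutrophils, and Cyp4f14 and Cyp4f15 were near background, with differences of −0.04, −0.02 and −0.09. The Cyp4a ω-hydroxylases, which form a vasoconstrictor from arachidonic acid, were all near background. Cyp4a12a and Cyp4a12b differed by −0.18 and −0.04, Cyp4a14 by 0.02, and Cyp4a10 by −0.28 ± 0.13 with overlapping groups.

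Cyp4b1, which oxidises fatty acids and some toxicants and is well known from lung, measured 9.30, 9.24 and 9.17 in WT and 9.01, 9.11 and 9.28 in VAChT KDHOM hearts. VAChT KDHOM 1 was the lowest array and VAChT KDHOM 3 lay among the WT values, and the difference was −0.10 ± 0.09 (limma adjusted p = 0.633). The lung markers Sftpc and Scgb1a1 were near background at 5.37 and 3.59. Of 12 lung and airway markers 6 were above background. These were Hopx at 10.79, Ager at 7.84, Sftpb at 6.84, Sftpa1 at 6.67, Napsa at 6.65 and Nkx2-1 at 6.53. Sftpa1, Napsa and Nkx2-1 lay close to the level of 6.50. Whether lung tissue had any part in the Cyp4b1 signal was not tested.

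Cyp1b1, an oestrogen and xenobiotic hydroxylase of vessel walls and stroma, was the member of family 1 above background, with 7.03, 7.12 and 7.11 in WT and 7.08, 6.98 and 6.79 in VAChT KDHOM hearts. The difference of −0.13 ± 0.10 was set largely by VAChT KDHOM 3. Cyp1a1, the classical target of the aryl hydrocarbon receptor, was near background at 5.72, 5.50 and 5.78 against 5.45, 5.51 and 5.29, a log2 difference of −0.25 ± 0.11 at an unadjusted limma p of 0.0520. Its groups overlapped by 1 value, between WT 2 and VAChT KDHOM 2. Without both arrays numbered 2 the log2 difference of Cyp1a1 was −0.38 (limma adjusted p = 0.464, with an unadjusted p of 0.0245). Cyp1a2, the liver member, differed by 0.04. Cyp2s1, an enzyme found outside the liver, differed by −0.03 ± 0.08, and Cyp2r1, a vitamin D hydroxylase, was near background with a difference of 0.07 ± 0.10.

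For 11 of the 17 genes above background the 95% interval of the difference lay wholly within a change of 1.3-fold in either direction. The other 6 were Cyp2j6, Cyp2e1, Cyp2d26, Cyp2d10, Cyp2w1 and Cyp2c37. Their intervals reached beyond 1.3-fold, so a change of that size was not excluded by these 6 arrays. The intervals of all 17 genes hold only for the labels as kept.

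Cyp2e1, which oxidises ethanol and fatty acids in liver and fat, had the widest interval of all, from −0.49 to 0.98. It measured 6.96, 7.24 and 6.90 in WT and 6.70, 7.09 and 8.05 in VAChT KDHOM hearts. The last array alone was high, and without VAChT KDHOM 3 the difference of 0.25 turned to −0.14. Adipocyte genes were followed on the same arrays. The hormone genes Retn and Adipoq and the lipid droplet gene Cidec were also highest on VAChT KDHOM 3, at 7.32, 6.13 and 7.49, where the other arrays lay at 6.64 to 7.09 for Retn, 5.69 to 6.07 for Adipoq and 7.07 to 7.30 for Cidec. Adipoq was near background. Pparg and Cidea were also highest there, at 9.54 and 8.97. Plin1, which coats lipid droplets, the hormone gene Lep and Ucp1 were lowest there, at 6.99, 6.00 and 5.79. Of the 11 adipocyte markers 7 were above background, 5 were highest and 3 lowest on VAChT KDHOM 3. The mean over that list was 7.97, 7.84 and 7.72 in WT and 7.66, 7.74 and 7.85 in VAChT KDHOM hearts. The part of fat in the Cyp2e1 value was not tested.

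**Figure D3:**
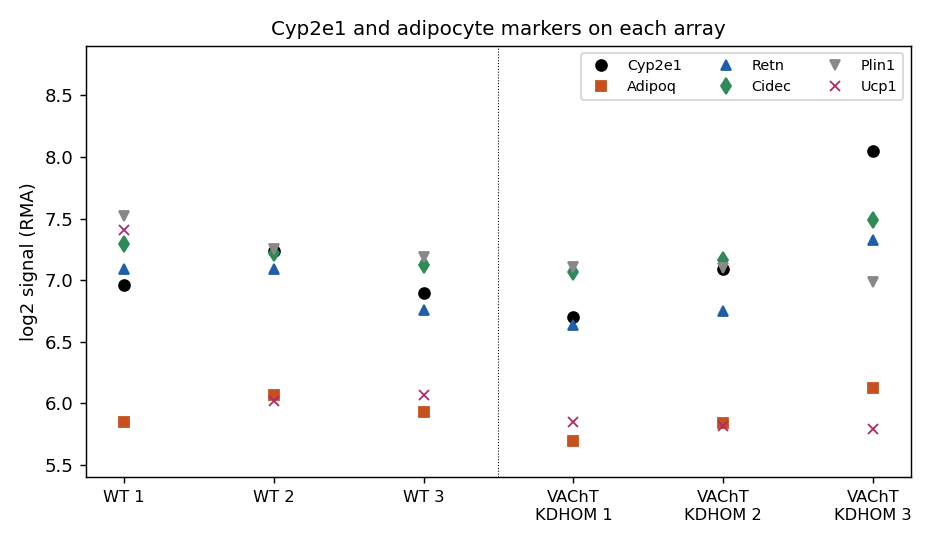
Log2 signal of Cyp2e1 and of 5 adipocyte markers on each array, with WT arrays left of the dotted line. Cyp2e1, Retn, Cidec and Adipoq are highest on VAChT KDHOM 3, Plin1 is lowest on that array, and Ucp1 is high on WT 1 alone, at 7.41 against 5.79 to 6.07 elsewhere.

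The Cyp2d subfamily oxidises drugs in liver and is encoded in a cluster on chromosome 15. Cyp2d22 measured 10.01, 9.97 and 10.05 in WT and 10.05, 10.18 and 10.12 in VAChT KDHOM hearts. The VAChT KDHOM values all lay just above the WT ones, by 0.10 ± 0.08 on average (limma adjusted p = 0.573), and by 0.05 without both arrays numbered 2. Cyp2d26 lay the other way, with 7.27, 7.29 and 6.96 in WT and 6.86, 6.85 and 6.84 in VAChT KDHOM hearts. Each VAChT KDHOM value was below every WT value, and the difference of −0.33 ± 0.11 had an unadjusted limma p of 0.0170 and an adjusted p of 0.409. Without both arrays numbered 2 it was −0.26 at an unadjusted limma p of 0.124, and it also missed 0.05 without WT 1 or WT 2 alone. The other Cyp2d genes above background, Cyp2d10, Cyp2d40 and the transcribed pseudogene Cyp2d37-ps, differed by −0.22, −0.07 and −0.13 with overlapping groups. Without both arrays numbered 2 the differences of these genes were −0.40, −0.22 and −0.19. The 5 Cyp2d genes near background differed by −0.15 to −0.04. These genes are close copies of each other and their probes can share RNA.

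Cyp2b23, the Cyp2b gene above background, differed by −0.14 ± 0.09. Cyp2w1, an enzyme of the fetal gut, measured 6.93, 6.56 and 6.73 in WT and 6.46, 6.55 and 6.40 in VAChT KDHOM hearts, close to the background level of 6.50. Its groups did not overlap, but only just, between WT 2 and VAChT KDHOM 2, and the difference was −0.27 ± 0.11 (limma adjusted p = 0.413, with an unadjusted p of 0.0393). That p stayed under 0.05 without WT 2 or VAChT KDHOM 2 but not without any of the other 4 arrays. The difference was −0.40 without both arrays numbered 2.

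The Cyp2c subfamily held most of the P450 genes that were lower without overlap. Its enzymes epoxidise arachidonic acid and oxidise drugs in liver, and its 13 measured genes lie on chromosome 19. Of these 13 genes 5 were lower at an unadjusted p of 0.05 (Cyp2c37, Cyp2c29, Cyp2c67, Cyp2c66 and Cyp2c39), and 6 were lower without overlap, the same 5 and Cyp2c23. The backgrounds were 12.6% and 21.9% of probe sets with 1 symbol at or below background. The other 7 Cyp2c genes differed by −0.04 to 0.03, so that the median of the subfamily was −0.04. The subfamily was picked out after its values had been seen, and its genes are near copies that can share probes, so the counts are a description.

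Cyp2c37, a gene of the liver-type list, had the largest difference of the 70 genes. It measured 7.00, 6.71 and 6.90 in WT and 6.41, 6.44 and 6.08 in VAChT KDHOM hearts. All 3 VAChT KDHOM values were below the lowest WT value and also below the background level, while all 3 WT values were above it. The difference was −0.56 ± 0.13 (SE, n = 3 per group; limma adjusted p = 0.409, with an unadjusted p of 0.00268). Without both arrays numbered 2 it was −0.71, and leaving out 1 array at a time it ranged from −0.65 to −0.45. Among the 52 olfactory receptor probe sets above the background level, 28.8% were lower at an unadjusted p of 0.05 and 34.6% were lower without overlap.

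For the Cyp2c genes near background no fold change is given, since neither group was above the background level. Cyp2c29, which epoxidises arachidonic acid, measured 4.91, 4.57 and 4.72 in WT and 4.43, 4.43 and 4.37 in VAChT KDHOM hearts, a log2 difference of −0.32 ± 0.10. Its VAChT KDHOM values were close together and below each WT value. Cyp2c39, a retinoic acid hydroxylase, measured 4.62, 4.15 and 4.08 against 4.01, 3.69 and 3.93, a log2 difference of −0.40 ± 0.16 that was −0.24 without WT 1 and missed an unadjusted p of 0.05 without WT 1, VAChT KDHOM 2 or VAChT KDHOM 3. Cyp2c67 and Cyp2c66 differed by −0.32 ± 0.11 and −0.23 ± 0.08. Without both arrays numbered 2 the log2 differences were −0.42 for Cyp2c29, −0.38 for Cyp2c39, −0.33 for Cyp2c67, −0.20 for Cyp2c66 and −0.17 for Cyp2c23. Cyp2c23, the main epoxygenase of kidney, measured 5.46, 5.45 and 5.37 against 5.20, 5.35 and 5.30, groups that were apart by a small gap. Without both arrays numbered 2, 2 of the 13 genes were lower at an unadjusted p of 0.05, Cyp2c29 and Cyp2c37, as without VAChT KDHOM 2 alone. Without WT 1 or VAChT KDHOM 3 there were 3, and after centring on the olfactory receptors 1, Cyp2c37.

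**Figure D4:**
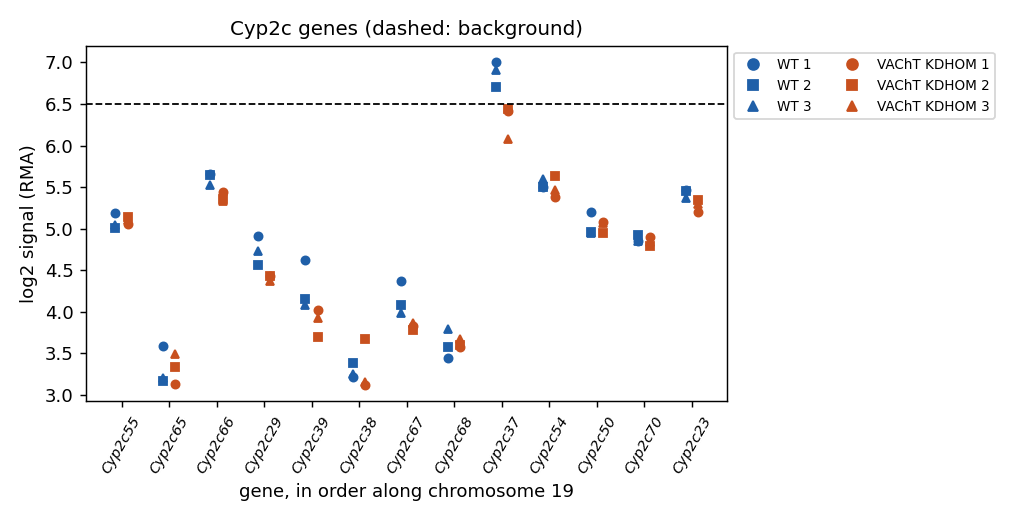
Log2 signal on each array of the 13 Cyp2c genes in their order along chromosome 19 (WT arrays blue, VAChT KDHOM arrays orange, dashed line at the background level of 6.50). The groups are apart for Cyp2c66, Cyp2c29, Cyp2c39, Cyp2c67, Cyp2c37 and Cyp2c23, which are not all neighbours, and Cyp2c50, Cyp2c54 and Cyp2c70 overlap.

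Promoters of 4 genes are shown, because Cyp2c37, Cyp2c29 and Cyp2d26 had separate groups, while Cyp2c50, the gene with the promoter most like that of Cyp2c37, differed by −0.01 ± 0.10. Each covers 250 bases before and 50 after the RefSeq start in GRCm38.p6, 5′ to 3′ on the strand of the gene. Cyp2c37 is at chr19:39992174-39992473, Cyp2c50 at chr19:40089429-40089728 and Cyp2c29 at chr19:39286835-39287134, all on the plus strand, and Cyp2d26 is at chr15:82794196-82794495 on the minus strand. Capitals mark 5 short motifs searched on both strands. The TATA box of core promoters was searched as TATAAA, and the upstream box bound by factor NF-Y as CCAAT. The core bound by the aryl hydrocarbon receptor was searched as GCGTG. For the liver transcription factors HNF4 and HNF1, part of each binding site was searched, as CAAAGT for the former and as GTTAAT for the latter.
Cyp2c37: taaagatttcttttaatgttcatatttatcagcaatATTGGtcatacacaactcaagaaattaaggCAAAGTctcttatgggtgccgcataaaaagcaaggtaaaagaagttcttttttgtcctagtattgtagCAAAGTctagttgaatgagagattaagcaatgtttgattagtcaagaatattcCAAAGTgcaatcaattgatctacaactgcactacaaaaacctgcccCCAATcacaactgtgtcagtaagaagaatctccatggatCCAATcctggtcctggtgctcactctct
Cyp2c50: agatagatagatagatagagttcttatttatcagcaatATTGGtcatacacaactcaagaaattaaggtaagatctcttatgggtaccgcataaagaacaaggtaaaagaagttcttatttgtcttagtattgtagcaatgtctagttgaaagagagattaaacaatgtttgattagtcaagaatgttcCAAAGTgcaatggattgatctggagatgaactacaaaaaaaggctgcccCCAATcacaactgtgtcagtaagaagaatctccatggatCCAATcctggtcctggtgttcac
Cyp2c29: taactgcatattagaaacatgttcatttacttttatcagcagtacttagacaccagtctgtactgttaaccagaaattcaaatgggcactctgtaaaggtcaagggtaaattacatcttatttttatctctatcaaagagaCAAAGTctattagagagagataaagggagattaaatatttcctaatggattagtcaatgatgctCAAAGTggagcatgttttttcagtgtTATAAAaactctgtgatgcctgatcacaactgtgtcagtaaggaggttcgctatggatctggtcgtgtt
Cyp2d26: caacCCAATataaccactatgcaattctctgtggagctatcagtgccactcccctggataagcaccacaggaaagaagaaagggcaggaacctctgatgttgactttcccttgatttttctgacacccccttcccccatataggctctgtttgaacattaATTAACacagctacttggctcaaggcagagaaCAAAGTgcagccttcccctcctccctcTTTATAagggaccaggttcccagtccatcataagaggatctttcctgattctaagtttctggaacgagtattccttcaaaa

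The promoters of Cyp2c37 and Cyp2c50 were identical in 86.6% of 305 aligned columns, the highest of 55 Cyp2c pairs, whose median was 54.6%. Both held 3 CCAAT matches, and Cyp2c37 held 3 CAAAGT matches where Cyp2c50 held 1. Cyp2d26 held matches to 4 of the 5 motifs, all but GCGTG. A promoter was listed for 54 of the 70 genes, 14 above and 40 near background. CAAAGT was present in 19 of the 40 near background (47.5%), in 3 of the 14 above it (21.4%) and in 14.3% of the promoters of 27025 genes. It was found in 10 of 11 Cyp2c promoters, whose median GC content was 36.3%, against 52.7% for all. CCAAT was present in 10 of the 14 (71.4%), in 17 of the 40 (42.5%) and in 37.9% of all, and TATAAA in 4 of the 14 (28.6%), in 17 of the 40 (42.5%) and in 14.2% of all. GCGTG occurred in 4 of the 14 and 9 of the 40, against 32.5% of all, and GTTAAT in 1 and 2, against 7.2%. CpG pairs were few, with a median of 4 above background and 2 near it, against 7 in all promoters, but Cyp2s1 and Cyp1b1, above background, had 17 and 16, and Cyp2r1 and Cyp4f39, near background, had 22 and 11. A match to such short letters is a description of the window, not a binding site.

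Other genes near background lay close to the background level or had larger differences than most. Cyp2f2, a lung enzyme that activates naphthalene, measured 6.62, 6.48 and 6.29 in WT and 6.19, 6.24 and 5.98 in VAChT KDHOM hearts, with WT 1 above the background level. The log2 difference was −0.33 ± 0.11 without overlap, and −0.37 without both arrays numbered 2. Cyp2ab1, an enzyme of little described function, measured 6.27, 6.15 and 6.00 against 5.73, 5.91 and 5.70, a log2 difference of −0.36 ± 0.10 without overlap (limma adjusted p = 0.409, with an unadjusted p of 0.00953). Without both arrays numbered 2 it was −0.42. Cyp4f39, an enzyme that hydroxylates very long fatty acids in skin, differed by −0.16 ± 0.09 without overlap, and by −0.18 without both arrays numbered 2. Cyp2a12, a steroid hydroxylase of liver, differed by −0.37 ± 0.19 with overlapping groups, and the pseudogene Cyp4f41-ps by −0.16 ± 0.13. All 6 Cyp3a genes, the main drug oxidases of liver, were near background with differences from −0.29 to 0.03 and overlapping groups. The hepatocyte marker Alb was near background too, at 5.26 to 5.71 on the 6 arrays, and of 18 measured hepatocyte markers 5 were above background.

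**Figure D5:**
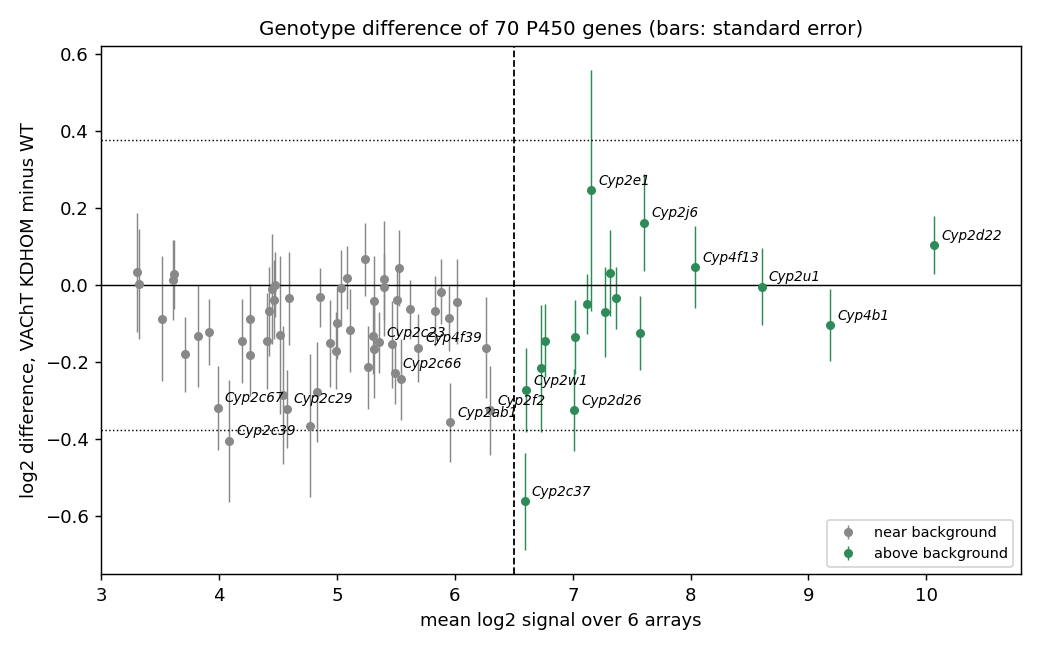
Log2 difference (VAChT KDHOM minus WT) against the mean log2 signal over the 6 arrays for the 70 P450 genes, with bars of 1 standard error, the dashed line at the background level of 6.50 and dotted lines at a change of 1.3-fold. The gene farthest below 0 is Cyp2c37 at −0.56, close to the background line, and the genes with signals above 7.5 lie between −0.13 and 0.16.

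The genes that work with P450 enzymes were read from lists, beside which 3.93% of all probe sets were higher and 7.81% lower at an unadjusted p of 0.05. Of 19 measured redox partners and haem enzymes, 2 were higher and 0 lower at an unadjusted p of 0.05, with a median of 0.09. Hmox1, which breaks haem down, measured 7.77, 7.56 and 7.66 in WT and 8.07, 7.75 and 8.16 in VAChT KDHOM hearts, 0.33 ± 0.12 higher with 1 overlapping value, and Ppox, which acts in haem synthesis, was 0.22 ± 0.09 higher without overlap. Of 21 genes for epoxide hydrolases and eicosanoid enzymes, 0 were higher and 1 lower, Tbxas1, which makes thromboxane, at −0.22 ± 0.08. Ephx2, the soluble hydrolase that removes the epoxides made by Cyp2c and Cyp2j enzymes, differed by 0.06 ± 0.08. Of 22 receptors that control P450 genes 1 was higher, Nr1h3 at 0.20 ± 0.08, and 0 were lower. Ahr, which drives Cyp1 genes, differed by −0.12 ± 0.13, and Ppara, which drives Cyp4a genes, by −0.04 ± 0.09. Of 17 P450 genes of other families 3 were lower, among them Cyp11b2, the aldosterone synthase, at −0.42 ± 0.08 and near background, and Cyp26b1, which degrades retinoic acid, at −0.32 ± 0.11. None of these list members passed an adjusted p of 0.05 by limma.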

How the data were processed

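Per the study's methods, total ventricular RNA was hybridised to Mouse Gene 1.0 ST arrays and scanned in Command Console 1.1. The series' design text gives whole hearts, and a pool of 2 RNA samples for each array. The authors computed and deposited log2 RMA values with Partek Genomics Suite (background correction, quantile normalization and probe summary). The genome build and annotation behind the probe sets were not stated in the labels or methods. Gene names came from the platform's annotation, chromosomes and promoters from RefSeq (GRCm38.p6). Probe sets with several symbols were left out.

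All 35556 probe sets were fitted with limma 3.58.1 (VAChT KDHOM minus WT, 3 arrays per group, Benjamini-Hochberg adjustment over all probe sets), checked on simulated data. The study's cut-off (unadjusted p of 0.05 and 1.3-fold) was counted beside it. The number of arrays, 3 per group, limits the precision. Named are all genes above background, the heart and vessel list, those past the study's cut-off, and the 5 genes near background with the highest signal and the 5 with the largest difference; of other lists, those with the 3 smallest p-values and defining markers were eligible. Cyp4f39 and the Cyp2c genes beyond these were named after their values were seen. Members and lists were chosen with earlier results of these data known. Other normalizations, centrings, filters, tests and arrays left out were tried. Promoters were aligned globally with Biopython.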

Additional observations from a re-analysis of the deposited data

How the results depend on the processing

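No P450 gene passed an adjusted p of 0.05 by limma in any setting, or in the ANOVA named by the study's methods. The lowest adjusted p ranged from 0.354 to 0.779. The 2 genes lower at an unadjusted p of 0.05 and 1.3-fold became 1 after centring on all probe sets or on the olfactory receptors, after the filter on dim probe sets, with array weights and in the ANOVA, 1 to 7 when single arrays were left out (7 without WT 3, 1 without WT 1 or VAChT KDHOM 3) and 5 without both arrays numbered 2 (Cyp2ab1, Cyp2c29, Cyp2c37, Cyp2w1 and Cyp3a25), a setting chosen after seeing the data. Cyp2c37 was among them each time, though under the filter it was tested only because its WT signals lifted its mean over the level. The 12 genes without overlap became 4 under the filter, which tests only the 17 genes above background, 16 to 28 with single arrays left out (28 without VAChT KDHOM 2, 26 without WT 3) and 35 without both arrays numbered 2, since fewer arrays separate more easily. The median difference of the genes above background, −0.07, was −0.0034 after centring on all probe sets, 0.043 on the olfactory receptors, −0.089 without both arrays numbered 2, and −0.099 to −0.046 with single arrays left out. For genes near background centring on the olfactory receptors gave −0.0057. The cause was not tested. Genes above background numbered 6 at the 99th percentile and 14 to 22 otherwise. Centring also moved the split over all probe sets, from 754 higher and 594 lower to 1125 and 268 on the median of all probe sets, 1541 and 156 on the olfactory receptors, and 777 and 409 after quantile normalization. Arrays of the same number did not deviate together in all 3 pairs (correlations of 0.06, −0.12 and 0.13 over all probe sets, 0.11, 0.15 and 0.09 over the P450 genes), so the numbers were not taken to pair them, and with the replicate number as a block 0 genes passed the adjusted p, 2 were lower at the study's cut-off and 10 in place of 9 had an unadjusted p of 0.05. Of 535 values of named genes under alternatives 486 kept their direction and 49, none called, changed sign.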

Other observations

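The array held 7 further probe sets annotated to several genes of which at least 1 was a P450 gene of these families, and they are described without a gene name. Of these, 6 were near background. A pair shared among Cyp3a genes lay higher in VAChT KDHOM hearts without overlap, with log2 signals of 4.04, 4.12 and 4.13 in WT and 4.30, 4.38 and 4.40 in VAChT KDHOM arrays for one, and of 3.94 to 4.07 against 4.19 to 4.32 for the other. Their differences were 0.26 ± 0.08 and 0.27 ± 0.08 (SE; limma adjusted p = 0.409 for both). Their annotated genes overlap, so they are not independent. A probe set shared among Cyp2a genes lay lower by 0.32 on the log2 scale, and the remaining 4 differed by −0.17 to 0.03.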
